A study of Mus musculus with 8 samples.

Results

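The genes described are 10 members of the Notch pathway in mouse lung myofibroblasts: the receptor genes Notch1, Notch2, Notch3 and Notch4, the ligand genes Jag1 and Jag2, and the target genes Hes1, Hey1, Hey2 and Heyl. They were taken by name, and each matched 1 of the 43432 Ensembl identifiers in the table of counts. RNA sequencing covered 8 libraries of lung myofibroblasts at postnatal day 7, all on a C57BL/6 background. Of these, 4 were wild type (control 1 to control 4) and 4 came from cells labelled as transgenic for Fra-2 with constitutive expression (Fra-2 1 to Fra-2 4). The sources used here do not give the transgene's promoter, the number of animals or how the cells were isolated. No label says that each library is its own animal, so a p-value here measures the spread among libraries, part of which may be technical. Xist, a transcript of female cells, was high in 2 controls (534 and 883 counts per 1000000) and in 2 Fra-2-labelled libraries (535 and 457). It was 9.0 in control 1, 0.534 in control 4, 0.902 in Fra-2 2 and 0.385 in Fra-2 4, so each group holds material of both sexes. The comparison asks how Notch pathway genes in the Fra-2-labelled libraries compare with the controls. Of the 9 members with enough reads for a test, 0 were higher and 0 were lower (edgeR adjusted p under 0.05), where 0.72% of all 15422 tested genes were higher and 0.298% lower.

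Notch receptors sit on the cell surface and are activated by ligands of the Jagged and Delta-like families on a neighbouring cell. Ligand binding exposes the receptor to cleavage by ADAM proteases and then by the gamma-secretase complex, which frees the intracellular domain. In the nucleus this domain joins the DNA-binding protein RBPJ and a Mastermind co-activator, and the complex switches on genes of the HES and HEY families, which are themselves transcriptional repressors. NOTCH3 and HEYL are best known from vascular smooth muscle cells and pericytes, and NOTCH4 from endothelium. The gene Fosl2 encodes Fra-2, which pairs with a JUN protein to form an AP-1 transcription factor.

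The windows before the start sites of the members were searched for the core letters of an RBPJ site and for those of an AP-1 site. RefSeq's promoter windows (300 bases, build GRCm38.p6) held 7 of the 10 members; Hes1, Hey1 and Heyl were not matched. The letters were GTGGGAA and the shorter TGGGAA that lies inside it for RBPJ, and TGANTCA for AP-1, each read on both strands. Over all 32851 windows, 6.38% held GTGGGAA, 25.6% held TGGGAA and 7.81% held TGANTCA. Among the 7 members, Hey2 alone held GTGGGAA, once on the opposite strand at positions -207 to -201 and once on its own strand at -4 to 3, counted from the start site with no position 0. Notch4 alone held TGANTCA, at -4 to 3. The windows of Notch1, Notch2, Notch3, Jag1 and Jag2 held none of these letters. The sequences from -250 to 3 are printed for these 2 genes and, for contrast, for Notch1 and Notch3, the other receptors to which the results below return. The start sites RefSeq uses for Hey2, Notch4 and Notch1 lie inside the genes' annotated spans in GENCODE, that of Notch1 far inside. The Notch1 window reaches up to 26504072, while the gene, on the minus strand, begins at 26516663. This window therefore does not show the sequence before that beginning. Matches are in capitals, and each is a description of letters, not of binding.
Hey2 (chr10:30842781-30843033, minus strand): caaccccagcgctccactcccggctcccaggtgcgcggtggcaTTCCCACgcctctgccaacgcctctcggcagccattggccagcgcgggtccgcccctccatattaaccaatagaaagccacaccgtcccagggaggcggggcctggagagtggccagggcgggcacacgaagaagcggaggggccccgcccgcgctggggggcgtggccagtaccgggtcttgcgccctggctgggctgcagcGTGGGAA
Notch4 (chr17:34564045-34564297, plus strand): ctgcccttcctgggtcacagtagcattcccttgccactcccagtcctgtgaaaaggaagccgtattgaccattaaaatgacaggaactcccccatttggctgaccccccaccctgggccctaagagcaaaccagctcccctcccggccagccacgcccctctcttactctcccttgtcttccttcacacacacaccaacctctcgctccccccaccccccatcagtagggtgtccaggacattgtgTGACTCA
Notch1 (chr2:26503820-26504072, minus strand): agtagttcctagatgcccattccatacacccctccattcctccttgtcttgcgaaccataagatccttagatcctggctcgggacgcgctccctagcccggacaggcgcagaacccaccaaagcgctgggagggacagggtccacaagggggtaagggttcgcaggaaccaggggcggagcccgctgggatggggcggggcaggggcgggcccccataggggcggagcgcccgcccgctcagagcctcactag
Notch3 (chr17:32166888-32167140, minus strand): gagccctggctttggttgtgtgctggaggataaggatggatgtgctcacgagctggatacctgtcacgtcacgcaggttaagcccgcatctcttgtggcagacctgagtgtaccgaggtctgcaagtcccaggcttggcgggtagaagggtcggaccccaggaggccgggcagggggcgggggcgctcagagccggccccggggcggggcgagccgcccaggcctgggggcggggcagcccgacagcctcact

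Library totals ran from 29926239 to 41335957 counts. CPM is a count divided by the library's TMM-scaled total, times 1000000. Fosl2, the gene named by the labels, measured 105, 117, 141 and 119 CPM in control 1 to control 4 and 166, 134, 126 and 104 CPM in Fra-2 1 to Fra-2 4. Its groups overlapped (log2 fold change 0.14, SE 0.136, edgeR adjusted p = 0.888; two-sided exact permutation p = 0.457, with 0.0286 the smallest possible), so reads of the mouse gene do not set the groups apart and the group is named by its label. All 12 alveolar myofibroblast markers were tested and their summed level was 12108 to 13952 CPM in controls and 12613 to 13477 CPM in the Fra-2-labelled libraries, led by Tgfbi. Of these, Stc1 and Actc1 were higher and Enpp2 was lower (edgeR adjusted p under 0.05), and no member of the 6 other marker lists passed. Among those lists, smooth muscle summed to 8511 to 10993 CPM over the 8 libraries, against 81.9 to 118 CPM for endothelium. The smooth muscle sum was thus of the size of the myofibroblast sum. Which cells its reads come from was not tested.

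Per length of exon, Heyl led the members and Jag2 came last. Levels between genes are compared here as CPM per kilobase of exon, with mean ± SD over all 8 libraries. Heyl stood at 32.9 ± 6.43 CPM per kilobase, above 93.3% of the 15334 tested genes that have an annotated length. Notch2 followed at 19.8 ± 1.95, then Hes1 at 9.43 ± 0.762 and Notch3 at 7.81 ± 1.62 CPM per kilobase. Each of these 4 genes stood above the next one in all 8 libraries, although the ranges of Heyl and Notch2, and those of Hes1 and Notch3, overlapped between libraries. Jag1 (3.94 ± 0.481) and Hey1 (3.58 ± 0.77 CPM per kilobase) could not be ordered, since Jag1 was above Hey1 in 6 of 8 libraries and in 1 of 8 when the longest transcript was used as the length. Notch1 stood at 2.09 ± 0.43 CPM per kilobase. Hey2 (0.702 ± 0.249) and Notch4 (0.563 ± 0.0863 CPM per kilobase) also traded places, with Hey2 above Notch4 in 5 of 8 libraries and in all 8 with the longest transcript. Jag2 stood at 0.0517 ± 0.0582 CPM per kilobase, below all but 0.515% of the tested genes.

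**Figure D1:**
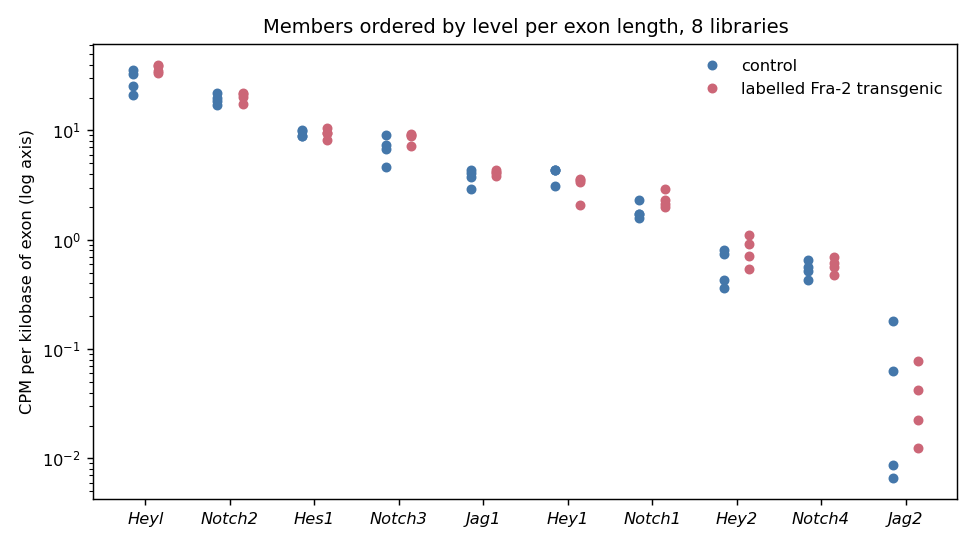
Each dot is 1 library, and the vertical axis is CPM per kilobase of exon on a log scale. The 10 members are ordered by their mean over the 8 libraries, from Heyl at 32.9 to Jag2 at 0.0517, with controls in blue and the Fra-2-labelled libraries in red.

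Notch2 (ENSMUSG00000027878, GRCm38 chr3:98013527-98150361, plus strand) was the main receptor transcript, and its exons share 541 bases with those of Gm42820 on the same strand. It measured 201, 186, 213 and 236 CPM in control 1 to control 4 and 237, 187, 219 and 232 CPM in Fra-2 1 to Fra-2 4. The groups overlapped over almost their whole range, with a 95% interval of 0.893 to 1.23 in fold (log2 fold change 0.07, SE 0.108, edgeR adjusted p = 0.94). Notch2 made up 67.8% ± 4.95 of the summed per-length level of the 4 receptor genes in controls and 63.6% ± 4.26 in the Fra-2-labelled libraries (SD, n = 4). Notch3 held 24% ± 4.25 and 27.3% ± 3.42, Notch1 6.39% ± 0.76 and 7.31% ± 0.976, and Notch4 1.89% ± 0.242 and 1.85% ± 0.353. All 4 receptor shares overlapped between the groups.

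Notch3 (ENSMUSG00000038146, chr17:32120820-32166852, minus strand) measured 37.6, 54.7, 72.7 and 59.5 CPM in control 1 to control 4. In Fra-2 1 to Fra-2 4 it measured 58.8, 74.2, 72.0 and 75.6 CPM. Control 1 lay well below the other 7 libraries, while control 3 and control 4 lay within the range of the Fra-2-labelled libraries. The group means were 56.1 ± 14.5 and 70.1 ± 7.7 CPM, for a log2 fold change of 0.32 with SE 0.165 (edgeR adjusted p = 0.648), and without control 1 the log2 fold change was 0.17. Reads of Notch3 may include some of the predicted gene Gm17276, whose exons overlap it by 488 bases on the other strand, because no strand-marking step is named for these libraries.

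Notch1 (ENSMUSG00000026923, chr2:26457903-26516663, minus strand) measured 22.3, 24.5, 33.0 and 24.6 CPM in the controls and 30.2, 32.9, 28.7 and 41.2 CPM in the Fra-2-labelled libraries, in library order. Control 3 was above 3 of the 4 Fra-2-labelled libraries, and Fra-2 4 was the highest of all. The log2 fold change was 0.35 (SE 0.155, edgeR unadjusted p = 0.041, adjusted p = 0.535), with a 95% interval of 1.01 to 1.6 in fold. It was 0.23 without Fra-2 4, the highest library, and 0.49 without control 3, the highest control. Notch1 shares exon sequence with 0610009E02Rik (1068 bases) and Gm13568 (414 bases) on the other strand, so its count is uncertain to that extent.

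Notch4 (ENSMUSG00000015468, chr17:34564268-34588503, plus strand) was scarce, with 3.49, 4.53, 5.21 and 4.18 CPM in the controls and 3.86, 5.57, 4.51 and 4.96 CPM in the Fra-2-labelled libraries. The 134 to 187 reads per library overlapped between groups (log2 fold change 0.12, SE 0.219, edgeR adjusted p = 0.951). Leaving out 1 library moved this value to between 0.03 (without control 1, or without Fra-2 2) and 0.22 (without control 3). Endothelial cells, the cells best known for this receptor, were represented by low levels of their markers. All 12 endothelial markers were detected in every library, at a summed 81.9 to 115 CPM in controls and 103 to 118 CPM in the Fra-2-labelled libraries, with Cdh5, the endothelial cadherin, at 15.4 to 34.7 CPM. Control 1 had the lowest sum. In bulk RNA, fewer cells of a type and less RNA per cell cannot be told apart. The part of these cells in the Notch4 and Hey2 reads was not tested.

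**Figure D2:**
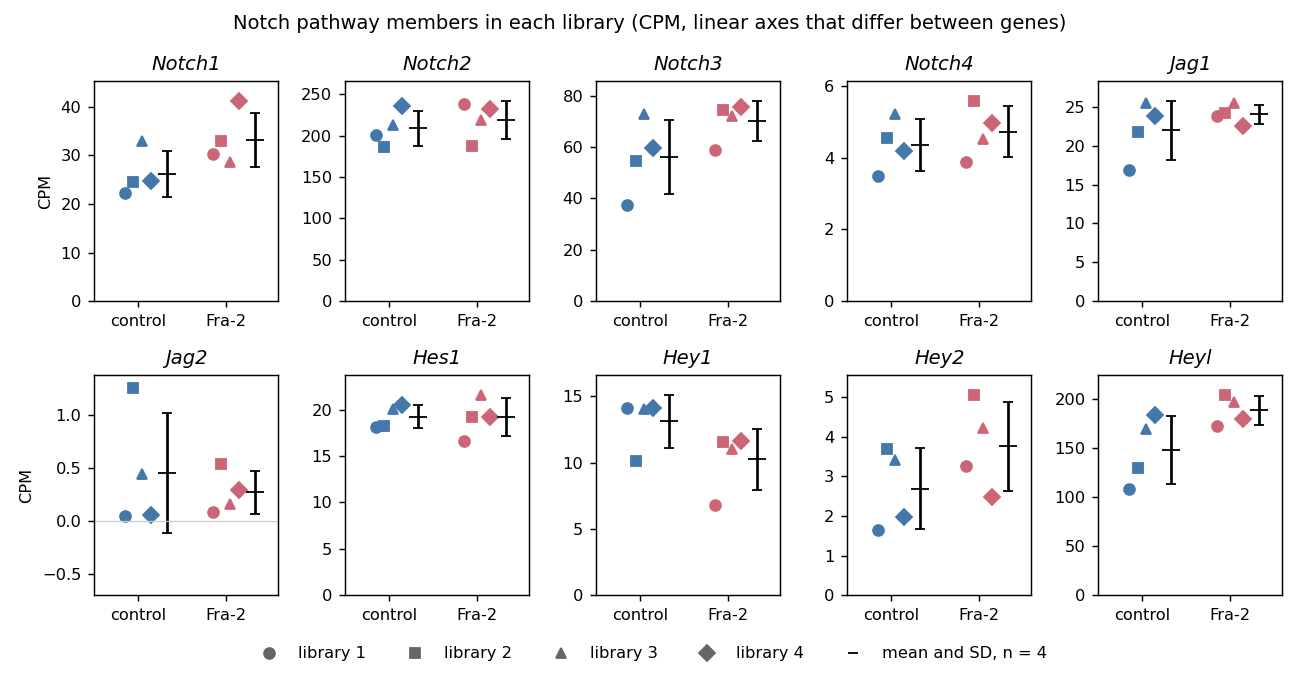
Each panel shows 1 gene, with CPM on a linear axis that starts at 0 except for Jag2, controls in blue and the Fra-2-labelled libraries in red. Symbols give the library number and bars the mean and SD (n = 4); in every panel the ranges of the 2 groups overlap.

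Of the ligand genes, Jag1 carried nearly all reads. Jag1 (ENSMUSG00000027276, chr2:137081456-137116644, minus strand) measured 16.8, 21.7, 25.5 and 23.8 CPM in control 1 to control 4 and 23.8, 24.2, 25.5 and 22.5 CPM in Fra-2 1 to Fra-2 4. Apart from control 1, all libraries lay between 21.7 and 25.5 CPM, and the log2 fold change was 0.13, with SE 0.143 (edgeR adjusted p = 0.906). Jag2 (ENSMUSG00000002799, chr12:112907819-112929776, minus strand) had 2, 44, 14 and 2 reads in the controls and 3, 17, 5 and 11 reads in the Fra-2-labelled libraries, too few for the filter on low counts. Control 2 held the most Jag2 reads and the groups overlapped. In the fit with no filter, where all 10 members were tested, edgeR did not call Jag2.

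Heyl (ENSMUSG00000032744, chr4:123233556-123249875, plus strand) measured 109, 130, 169 and 184 CPM in control 1 to control 4. It measured 173, 204, 197 and 180 CPM in Fra-2 1 to Fra-2 4. The Fra-2-labelled libraries lay in a narrow band whose lower end was reached by control 4 alone, while control 1 and control 2 lay far below it. The means were 148 ± 34.8 and 188 ± 14.6 CPM, and the log2 fold change was 0.35, with SE 0.145 (edgeR unadjusted p = 0.0301, adjusted p = 0.483). This had the smallest p of the 9 tested members. Without control 1 and control 2 together, an alternative added after the data were seen, the log2 fold change was 0.09 (edgeR adjusted p = 0.976).

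Hey1 (ENSMUSG00000040289, chr3:8663359-8667256, minus strand) had a value in the opposite direction. It measured 14.1, 10.1, 14.1 and 14.1 CPM in control 1 to control 4 and 6.83, 11.6, 11.03 and 11.6 CPM in Fra-2 1 to Fra-2 4. Of the controls, 3 were above every Fra-2-labelled library, and control 2 lay among the latter. This gave a log2 fold change of -0.35 with SE 0.191 (edgeR adjusted p = 0.678), and it was -0.20 without Fra-2 1, the lowest library. Hey2 (ENSMUSG00000019789, chr10:30832359-30842801, minus strand), a close relative, measured 1.65, 3.71, 3.41 and 1.99 CPM in the controls and 3.26, 5.06, 4.22 and 2.49 CPM in the Fra-2-labelled libraries. Its log2 fold change of 0.48 was the largest of the members in size, with an SE of 0.323 and an edgeR adjusted p of 0.78. These rest on 66 to 159 reads per library.

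Hes1 (ENSMUSG00000022528, chr16:30064384-30067796, plus strand), a target gene that other signals also induce, had the value nearest 0. It measured 18.1, 18.3, 20.03 and 20.5 CPM in the controls and 16.6, 19.2, 21.6 and 19.2 CPM in the Fra-2-labelled libraries. To 2 decimals its log2 fold change was 0.00, with SE 0.131 (edgeR adjusted p = 0.997), and the 95% interval of the fold change was 0.821 to 1.21.

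Within the HES and HEY family, the shares of Heyl and Hey1 did not overlap between the groups although neither gene passed alone. Heyl made up 61.0%, 66.3%, 69.0% and 70.8% of the summed per-length level of the 4 target genes in control 1 to control 4. In Fra-2 1 to Fra-2 4 it made up 75.5%, 73.9%, 72.1% and 72.2%. The lowest Fra-2-labelled library was thus above the highest control, by a small margin. The share of Hey1 was 12.4%, 8.11%, 8.99% and 8.52% in the controls and 4.67%, 6.55%, 6.32% and 7.32% in the Fra-2-labelled libraries. Hes1 held 22.3% ± 2.66 and 18.7% ± 1.09 and Hey2 1.39% ± 0.567 and 1.61% ± 0.385, both overlapping. Taken singly, 0 of the 9 tested members had groups that did not overlap, against 5.76% of all tested genes (3.35% higher and 2.42% lower). The shares are scores over chosen genes and carry no test. Shares in a family add up to a fixed total, so those of Heyl and Hey1 are not separate observations. The percentage of all tested genes covers single genes and gives no background for shares. With the longest transcript as length, the mean share of Heyl was 61.9% in controls and 69.0% in the Fra-2-labelled libraries, and that of Hey1 10.5% and 6.98%.

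**Figure D3:**
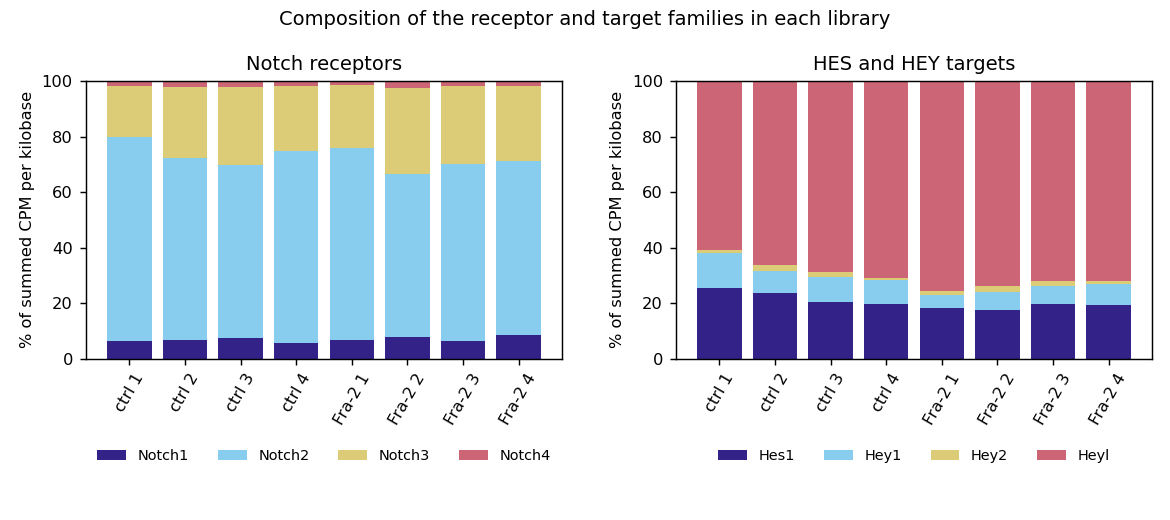
Stacked bars give, for each library, the percentage of the summed CPM per kilobase held by each of the 4 receptor genes (left) and the 4 target genes (right). Notch2 holds the largest receptor part in every library, and the Heyl part is 61.0% to 70.8% in controls and 72.1% to 75.5% in the Fra-2-labelled libraries.

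Over both directions, edgeR called 0 of 9 members and 1.02% of all tested genes. DESeq2 and limma-voom also called 0 members. At an unadjusted edgeR p under 0.05 there were 2 of 9, Notch1 and Heyl, against 8.71% of all tested genes. The log2 fold change was above 0 for 7 of 9 members and for 47.8% of all tested genes. The median was 0.13 over the members and -0.01 over all tested genes. Of the 95% intervals, those of Notch1, Notch2, Notch3, Notch4, Jag1, Hes1, Hey1 and Heyl lay below a doubling and above a halving, and only that of Hey2 reached past a doubling, to 2.26-fold.

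Control 1 had the lowest CPM of all 8 libraries for 7 of the 10 members: Notch1, Notch3, Notch4, Jag1, Jag2, Hey2 and Heyl. The share of all tested genes that were lowest in control 1 was not counted, so this cannot be read as particular to the members. The same library had the lowest summed level of the endothelial, epithelial, immune and mesothelial markers. For the 11 epithelial markers, led in CPM by Sftpc, the sum was 56.8 CPM in control 1 against 106 to 203 CPM in the other 7 libraries. Its immune sum was 81.3 CPM against 99.8 to 131 CPM. Of the most abundant immune markers, Lyz2 was lowest in control 1 (22.1 CPM) but Cd68 was highest there (42.5 CPM). Its mesothelial sum was 2.48 CPM against 4.39 to 12.5 CPM. Without control 1, Notch1 had a log2 fold change of 0.28, Notch3 of 0.17, Jag1 of 0.02, Hey2 of 0.31 and Heyl of 0.23. The part of other cell types in these values was not tested.

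**Figure D4:**
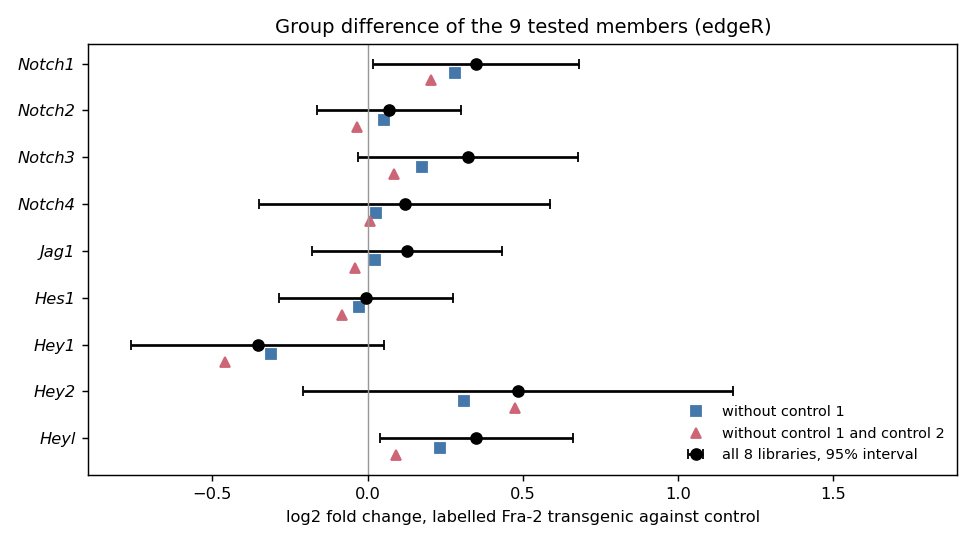
Black dots and bars give the log2 fold change and 95% interval of each tested member over all 8 libraries, blue squares the value without control 1 and red triangles that without control 1 and control 2. Without both controls Heyl goes from 0.35 to 0.09 and Notch3 from 0.32 to 0.08, while Hey1 goes from -0.35 to -0.46.

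Notch3 and Heyl are both known from mural cells, so the pericyte and smooth muscle markers are given beside them. The 10 pericyte markers had a summed 2070 to 2542 CPM in controls and 1862 to 2184 CPM in the Fra-2-labelled libraries. Rgs5, a regulator of G protein signalling and the most abundant of them, measured 1303, 1363, 1373 and 1527 CPM in the controls and 880, 1092, 1189 and 939 CPM in the Fra-2-labelled libraries (edgeR adjusted p = 0.092), with no overlap between groups. DESeq2, and edgeR with no filter on low counts, called Rgs5 lower. Pdgfrb, the PDGF receptor of mural cells and fibroblasts, was the reverse, at 329, 301, 380 and 389 CPM against 436, 462, 418 and 458 CPM (edgeR adjusted p = 0.194). The pericyte list thus gave no single direction, with 5 positive and 5 negative values and none past the threshold. At an unadjusted edgeR p under 0.05 there were 5 of 10, in both directions, against 8.71% of all tested genes. The 8 smooth muscle markers, led by Myh11 in CPM not corrected for length, had a summed 9017 to 10263 CPM and 8511 to 10993 CPM. Of these, 0 of 8 passed. Their sum was of the size of the alveolar myofibroblast sum, so it cannot be read as a share of mural cells. The part of mural cells in the Notch3 and Heyl values was not tested.

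Relations between members were examined across the libraries. All 36 pairs of the 9 tested members were correlated over the 8 libraries on log2 CPM. Of these, 28 of 36 were positive, but 0 passed after Benjamini-Hochberg adjustment of two-sided exact permutation p-values. The pairs share the same 9 genes, and the share of positive pairs among all tested genes was not computed, so the count has no background. Notch3 and Heyl, a receptor and a target, had Pearson's r = 0.885 (exact permutation p = 0.00546, adjusted p = 0.0982) and Spearman's rho = 0.667 (p = 0.0831, adjusted p = 0.519). Without control 1 and control 2, the libraries farthest from the Notch3 median, r was 0.332, so the size of the pooled r leans on those libraries. Within the controls r was 0.858 and within the Fra-2-labelled libraries it was 0.637, each over 4 libraries.

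For Notch3 and Notch4, r was 0.849 (exact permutation p = 0.00541, adjusted p = 0.0982) with rho = 0.786 (p = 0.0279, adjusted p = 0.503), and r was 0.875 without control 1 and control 2. Notch1 and Notch3 had r = 0.812 (exact permutation p = 0.0118, adjusted p = 0.106) and rho = 0.905 (p = 0.00456, adjusted p = 0.164), with r = 0.785 without control 1 and Fra-2 4. The relations of Jag1 with Notch3 and with Heyl, at r = 0.882 and r = 0.874 (exact permutation p = 0.0158 and p = 0.00893, adjusted p = 0.114 and p = 0.106; rho = 0.548 for both, p = 0.171, adjusted p = 0.519), went to 0.112 and 0.0977 without control 1 and control 2. For Hes1, r was 0.108 with Notch1 and 0.073 with Notch2 (exact permutation p = 0.803 and p = 0.862, adjusted p = 0.826 and p = 0.862; rho = 0.238 and 0.143, p = 0.582 and p = 0.752, adjusted p = 0.806 and p = 0.873). It was higher with Notch3 and Notch4, at 0.484 and 0.434 (exact permutation p = 0.23 and p = 0.284, adjusted p = 0.511 and p = 0.537; rho = 0.5 and 0.333, p = 0.216 and p = 0.428, adjusted p = 0.519 and p = 0.7).

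In a second family of 27 relations, between the members and the summed endothelial, pericyte and smooth muscle markers, 0 passed. For Heyl and the pericyte sum the pooled r was 0.116 (exact permutation p = 0.782, adjusted p = 0.888; rho = 0.0714, p = 0.882, adjusted p = 0.971). Within the 4 controls it was 0.958 and within the 4 Fra-2-labelled libraries 0.939, values that carry no test. With the endothelial sum, the within-group r of Heyl was 0.471 and -0.86. The pericyte sum was in large part Rgs5, at a mean of 1391 of 2282 CPM in controls and 1025 of 2032 CPM in the Fra-2-labelled libraries. For Hes1 and the pericyte sum r was 0.688 (exact permutation p = 0.0588, adjusted p = 0.579; rho = 0.643, p = 0.0962, adjusted p = 0.971), 0.939 within controls and 0.887 within Fra-2-labelled libraries, and 0.345 pooled without control 4 and Fra-2 1. For Notch3 and the pericyte sum the pooled r was 0.0719 (exact permutation p = 0.855, adjusted p = 0.888; rho = -0.0238, p = 0.977, adjusted p = 0.977), with 0.701 and 0.66 within the groups. Notch2 and the smooth muscle sum had the highest pooled r, 0.827 (exact permutation p = 0.0161, adjusted p = 0.436; rho = 0.762, p = 0.0368, adjusted p = 0.971), and 0.68 without Fra-2 1 and Fra-2 2. Within the controls this r was 0.551 and within the Fra-2-labelled libraries 0.99.

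Most of the machinery around the members had enough reads for a test and gave no call either. For scale, edgeR called 1.02% of all tested genes. Of 54 other genes of the pathway, 47 were tested, 0 were higher and 0 were lower in edgeR, DESeq2 and limma-voom, and 0 had an unadjusted edgeR p under 0.05, against 8.71% of all tested genes. Their median log2 fold change was 0.04. Of the 10 receptor proteases and their subunits all were tested, led per length by Ncstn, the nicastrin subunit of gamma-secretase, at 209 ± 20.8 and 225 ± 8.61 CPM (controls, then Fra-2-labelled). Psenen, another gamma-secretase subunit, had only 0.428 ± 0.101 and 0.478 ± 0.0669 CPM; its exons overlap those of U2af1l4 and Gm49396 on the other strand, so its count is uncertain. Aph1b and Aph1c are near-identical copies, and their counts are uncertain.

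In the nuclear complex, Maml2, a Mastermind co-activator, measured 131 ± 17.3 and 142 ± 14.2 CPM. Rbpj, the DNA-binding partner of the receptor domain, named after its values were seen, measured 48.9 ± 4.67 and 56.5 ± 5.36 CPM, and the log2 fold change was 0.21, with SE 0.112 (edgeR adjusted p = 0.676). The 9 co-repressor genes had a median log2 fold change of 0.03. Eogt, which attaches a sugar to the extracellular repeats of Notch, led the 6 glycosylation genes at 73.4 ± 7.65 and 86.6 ± 9.85 CPM, and its edgeR adjusted p of 0.592 was the smallest of all 47. Mib1, a ubiquitin ligase that acts on ligands in the sending cell, measured 138 ± 12.7 and 152 ± 23.6 CPM, and Itch, a ubiquitin ligase of receptor turnover, 185 ± 10.03 and 183 ± 8.38 CPM.

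Other ligands and the other genes listed as targets were scarce. Dlk1, a non-canonical ligand, led them at 7.76 ± 1.86 and 6.14 ± 1.48 CPM, and the log2 fold change was -0.34, with SE 0.225 (edgeR adjusted p = 0.78). Dll4, named after its values were seen, measured 0.341 ± 0.0979 and 0.697 ± 0.277 CPM, with at most 36 reads in a library (log2 fold change 1.03, SE 0.542, edgeR adjusted p = 0.666). Of 7 other target genes, 2 had enough reads for a test, Hes6 and Dtx1. Hes6 led per length, at 0.968 against 0.716 CPM per kilobase over the 8 libraries. In CPM, Hes6 measured 1.66 ± 0.348 and 1.84 ± 0.893, below Dtx1 at 3.68 ± 0.379 and 3.87 ± 0.938. Hes5 had 0 reads in all 8 libraries and Nrarp at most 6. Both overlap other annotated genes on the opposite strand, Nrarp over 2051 of its 2582 exon bases, so their counts are uncertain.

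**Figure D5:**
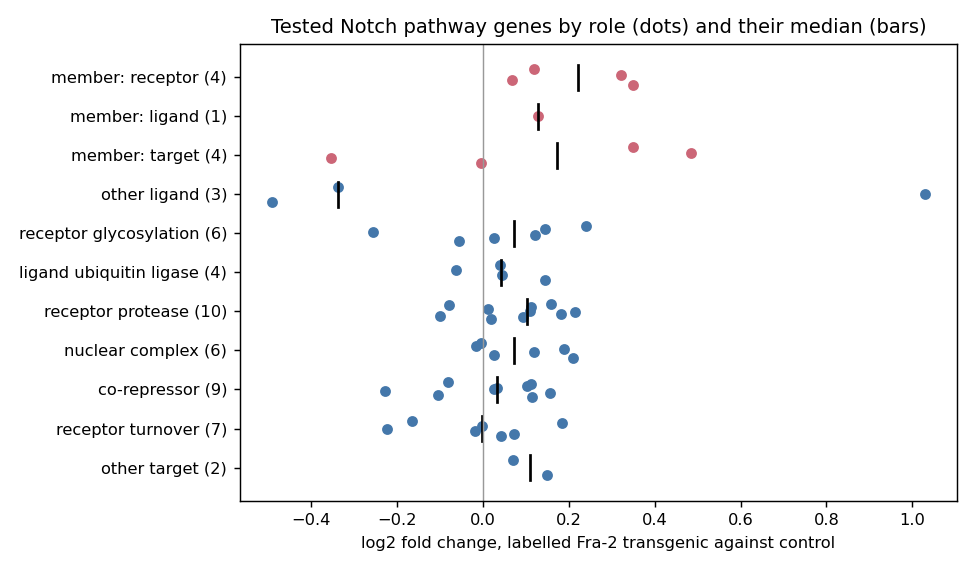
Each dot is the log2 fold change of 1 tested gene, members in red and other pathway genes in blue, grouped by role with the number tested in brackets and the median as a bar. No gene shown passed the threshold, and apart from Dll4 at 1.03 all values lie between -0.49 and 0.48.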

How the data were processed

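The deposited table holds raw, whole-number counts for mouse Ensembl identifiers, 1 column per sample, named by title. Per the labels' protocols, mRNA from 50 ng of total RNA was amplified (NuGEN Ovation V2) and made into libraries with Nextera XT; amplification can add spread between libraries, and no strand marking is named. Per the submitters' processing notes the genome build is GRCh38, a human build, while the rows are mouse genes. The aligner, the counter and the gene models were not given in the sources used here. Symbols, coordinates and exon lengths came from GENCODE M21 (GRCm38).

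Counts were analysed in R 4.3.3. With edgeR 4.0.16, filterByExpr kept 15422 genes (at least 10 counts, total at least 15). Libraries were scaled by TMM and groups compared with the robust quasi-likelihood F-test, two-sided, Benjamini-Hochberg adjusted over all tested genes at 0.05. DESeq2 1.42.0 and voom in limma 3.58.1 were alternatives. Log2 CPM for correlations used a prior count of 2. Set against counting noise alone, library pairs within a group differed by a chi-square of 36 to 155 per gene, and all 8 were kept. Amplification also adds spread, so this value cannot show that the libraries are separate samples. The procedure was tested on simulated data. Members, lists and alternatives were chosen with earlier results of these data known. Named were all members, Fosl2, called genes of each list, and the most abundant gene per role (per length) or marker list (in CPM). Other genes are said to be named after their values were seen, as were Pdgfrb, Psenen, Dtx1, Hes5 and Nrarp. One gene that this rule names is not reported here.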

Additional observations from a re-analysis of the deposited data

Results flagged for a closer look

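Of 22 genes (Fosl2 and the Notch pathway genes named with values), each checked in both groups (44 groups of 4 libraries), 4 groups had a library far from the other 3 by Dixon's ratio at its 95% critical value. Chance alone flags about 1 in 20 such groups. Hey1 stood apart in both groups: control 2 measured 10.1 CPM where the other controls all measured 14.1 CPM, and Fra-2 1 measured 6.83 CPM against 11 to 11.6 CPM. The log2 fold change of Hey1 was -0.45 without control 2 and -0.20 without Fra-2 1. Ncstn measured 238 CPM in Fra-2 1 against 220 to 221 CPM, and Rbpj 55.9 CPM in control 2 against 45.7 to 47.3 CPM.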

How the results depend on the processing

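The counts of called members and of other called pathway genes were 0 in each direction under every alternative run, so their side of the threshold did not move. The called genes among all tested (111 higher and 46 lower in edgeR) were 272 higher and 97 lower in DESeq2 and 28 and 15 without control 1 and control 2 together. Leaving out each library in turn gave 50 to 153 higher and 22 to 52 lower. For the cell type markers (2 higher and 1 lower), called genes were 4 higher and 2 lower in DESeq2, 2 lower with no filter, 0 lower with upper-quartile scaling, total counts or a fit without robust dispersion, 1 and 0 with sex read from Xist as a covariate, and 0 and 0 without control 1 and control 2. Leaving out each library gave 0 to 3 higher and 0 to 1 lower. With 2 libraries left out the fit has fewer samples; otherwise the cause was not tested. The covariate and the removal of both controls were chosen after seeing the data. Values near 0 changed sign: Notch2 had a log2 fold change of -0.035 and Jag1 of -0.0402 without control 1 and control 2, and with each library left out Hes1 ran from -0.0632 to 0.0622, Itch from -0.0407 to 0.0172 and Hes6 from -0.24 to 0.31. With total counts the r of Hes1 was -0.00915 with Notch1 and -0.14 with Notch2. No label says what a replicate number marks. Deviations from the group means correlated at 0.0018, 0.219, 0.0797 and 0.31 between same-numbered libraries, against a median of -0.0971 between other numbers. Deviations in a group sum to 0, so positive values push others below 0 and that median is no independent baseline. That 3 of 4 correlated best with their own number is at most a hint of pairing, from the data and not from the design. Not every pair exceeded 0.1, so the block was kept as an alternative. With the replicate block, 137 higher and 53 lower genes were called among all tested, and the member with the smallest adjusted p was Heyl (edgeR adjusted p = 0.254). Leaving out each library, the log2 fold change ran from 0.0222 to 0.138 for Notch2, 0.175 to 0.475 for Notch3, 0.0229 to 0.211 for Jag1, 0.308 to 0.686 for Hey2 and 0.232 to 0.474 for Heyl. Among the members, precision is limited by low counts for Jag2 (2 to 44 reads), Hey2 (66 to 159) and Notch4 (134 to 187).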

Other observations

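For 6 members, the 3 protein-coding genes most like each across the 8 libraries were found by Pearson's r on log2 CPM among 9552 genes whose mean reached 5 CPM. Being the highest of so many, these values describe the libraries and carry no test. Notch3 was most like Gbp7 (r = 0.979), Maff (0.967) and Pip5k1a (0.964). Heyl was most like Cmklr1 (0.975), the chemerin receptor gene, Stc2 (0.973) and C1qtnf6 (0.963). Notch1 was most like Ahr, the aryl hydrocarbon receptor gene (0.985), Rab33b (0.972) and Mdc1 (0.96), and Notch2 most like Aldh9a1 (0.984), Rbbp7 (0.982) and Nsdhl (0.981). Jag1 was most like Wsb1 (0.956), Maf (0.954) and Mad2l2 (0.954), and Hes1 most like Mnat1 (0.955), Tmem136 (0.942) and Med8 (0.931). Without the 2 libraries farthest from the Jag1 median, its r with Maf was 0.371, while that of Notch1 with Ahr was 0.963. None of these genes is on the lists of Notch pathway genes used here.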
